A study of Mus musculus with 8 samples.

Results

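The cytosolic ribosomal protein genes encode the proteins of the small (40S) and large (60S) ribosomal subunits. Members were the protein-coding rows of the count table whose symbol begins with Rpl or Rps, without the S6 kinases (Rps6k), pseudogenes (-ps) and Rps19bp1. This rule used names only and found 85 genes among 55471 gene rows, 52 of the large and 33 of the small subunit. Of these, 77 are core subunits and 8 are paralogs: Rpl3l, Rpl7l1, Rpl10l, Rpl22l1, Rpl36al, Rpl39l, Rps27l and Rps27rt. The 85 genes lie on 19 chromosomes, 14 of them on chromosome 7 and 4 on the X chromosome. All 85 were accounted for: 84 passed the filter on low counts, and Rpl10l had 0 counts in every library.

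Each ribosome holds a single copy of nearly every one of these proteins, so their messenger RNAs are made in similar amounts from genes scattered over the genome. Most of these messenger RNAs begin with a tract of pyrimidines, the 5′ terminal oligopyrimidine (TOP) motif, through which the growth-sensing kinase mTOR controls their translation as a group. Mutation of single members, such as RPS19 or RPL5, causes Diamond-Blackfan anaemia in humans, and reduced dosage of Rpl38 changes the patterning of the axial skeleton in mice.

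Bulk RNA-seq had been done on sorted cells from the femurs of neonatal mice at day 3 to 5. Skeletal stem cells (SSC), which give rise to bone, cartilage and stroma, and bone cartilage stromal progenitors (BCSP), a more committed population, were taken from wild-type (WT) and Tet1 knockout (KO) mice. Tet1 encodes a dioxygenase that oxidises 5-methylcytosine in DNA. Every sample, wild type included, has the strain name B6;129S4-Tet1tm1.1Jae/J. The 4 groups were WT SSC, KO SSC, WT BCSP and KO BCSP, each with 2 libraries that the titles number as round 1 and round 2 (library 1 and library 2 here). It is unknown from the labels if both libraries of a group are separate mice or pools, so p-values measure only the spread between these libraries, which may be technical. The labels do not say what a round stands for.

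Libraries held 104782544 to 168004119 counts. Tet1 itself was counted at 15.6 and 19.6 CPM (counts scaled to a common library size) in the WT SSC libraries 1 and 2, at 7.26 and 11.8 in KO SSC, at 21.6 and 10.98 in WT BCSP and at 10.8 and 11.96 in KO BCSP. The library labelled WT BCSP 2 therefore lay within the KO range of Tet1, a check over the whole gene that also counts any exons the allele leaves in place. It sat on the wild-type side for Trf (transferrin), chosen after its values were seen, at 41.1 CPM against 16.5 to 25.7 in the other WT and 2.59 to 3.97 in the KO libraries. The 6 cartilage markers summed to 266700 to 354000 CPM, with none at 0 in any library. Eng (CD105), a sort marker of BCSP, stood at 25.7 to 50.5 CPM in the BCSP and 2.53 to 3.89 CPM in the SSC libraries, while the sort marker Enpep was at 1.11 to 3.55 CPM throughout. The library labelled WT BCSP 2 stands apart from the other 7: it has the largest total and the fewest genes detected (22039, against up to 25782), and its short genes are high. The members' comparisons that rest on it are given with and without it. The TPM levels and some list medians and correlations are given only with it. Xist (74.9 to 620.8 CPM) and the Y-linked Ddx3y were counted in every library. Each thus held transcripts of both sexes, which points to more than 1 mouse. Ddx3y stood at 62.1 to 92.2 CPM in the KO and 23.2 to 39.7 CPM in the WT libraries. Eif2s3y and Uty were also apart by genotype, while Kdm5d and Xist overlapped. Sex make-up may thus differ with genotype, and its part in the KO comparisons was not tested.

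RefSeq start windows (GRCm38.p6) were matched for 65 of the 85 genes. The windows below run from 10 bases before the annotated start to its base 20 and are shown to let the tract be seen, with the pyrimidine run of at least 5 bases, opening with C, that covers or lies nearest the start in capitals. Rpl38 has its tract at the first base. Rps6, the mTOR-pathway phosphoprotein of the 40S subunit, and the stalk protein gene Rplp2 have it overlapping an annotated start that lies inside the run. Rps27 and Rps27rt are a parent gene and its intronless copy. Rpl39l is a paralog of few counts, and Rps28 has no such run in its window. These examples were chosen after viewing the windows.
Rpl38 (chr11:114668570-114668599, plus strand): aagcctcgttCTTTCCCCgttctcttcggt
Rps6 (chr4:86857348-86857377, minus strand): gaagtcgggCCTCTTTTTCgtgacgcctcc
Rplp2 (chr7:141447641-141447670, plus strand): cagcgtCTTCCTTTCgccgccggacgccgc
Rps27 (chr3:90213629-90213658, minus strand): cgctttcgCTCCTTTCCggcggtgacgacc
Rps27rt (chr9:114982720-114982749, minus strand): ttatcccttgCTTTCCggcggtgacgacct
Rpl39l (chr16:10170218-10170247, plus strand): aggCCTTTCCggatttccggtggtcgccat
Rps28 (chr17:33824543-33824572, minus strand): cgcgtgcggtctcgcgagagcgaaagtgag

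Over all matched members, 14 of 65 genes (21.5%) had C as the annotated first base followed by 4 pyrimidines, against 3.01% of 27025 genes with a window. The letters CTTTC or CTTCC on the transcript strand, from 10 bases before to 40 after the start, occurred in 63.1% of the member genes and 17.4% of all genes. In the whole 300-base promoter windows, read on both strands, CCGGAAG occurred in 26 of the 65 member genes against 9.93% of all genes, AAGATGG in 15.4% against 7.28%, GGGCGG in 61.5% against 38.2% and TATAAA in 10.8% against 15.7%. These are matches of letters in annotated windows and say nothing of binding.

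Ribosomal protein genes took 3.56 to 6.52% of all counts. The share was 4.73% and 3.96% in WT SSC libraries 1 and 2, 4.12% and 3.94% in KO SSC, 3.79% and 6.52% in WT BCSP, and 3.90% and 3.56% in KO BCSP. The library labelled WT BCSP 2 was the high one, and the other 7 lay between 3.56 and 4.73%. Small-subunit genes made up 42.1 to 43.2% of the ribosomal protein counts in every library, and at 42.6% the library labelled WT BCSP 2 lay within the range of the others. In bulk RNA a larger share of cells rich in these transcripts cannot be told apart from more of them per cell.

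**Figure D1:**
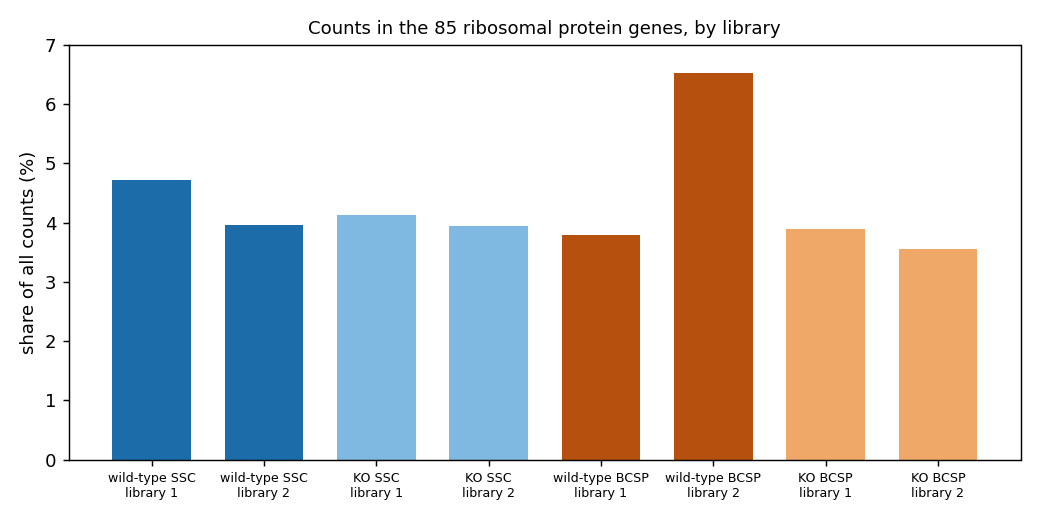
Share of all counts (%) in the 85 ribosomal protein genes, 1 bar per library, coloured by group. The library labelled WT BCSP 2 reaches 6.52% and the other 7 lie between 3.56 and 4.73%.

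Compared between genes per length (TPM, counts per base of annotated exon scaled to a fixed sum), the stalk proteins Rplp1, at 6403 ± 1435 TPM (SD, n = 8), and Rplp0, at 4740 ± 1018 TPM, were the highest by exon length. Rplp1 and Rplp0 carry the acidic stalk that recruits translation factors. Next came Rps3a1 (4565 ± 565 TPM), Rps15 (3946 ± 883 TPM) and Rpl36 (3080 ± 639 TPM), so that the neighbours Rplp0 and Rps3a1 did not differ beyond their spread. The median member stood at 1009 TPM. The order depends on the length used: with the length of the principal transcript Rps12 moved from rank 14 to rank 1, ahead of Rplp1 and Rplp0, and Rpl36 from rank 5 to rank 35, and the ranks by the 2 lengths correlated at Spearman 0.78 over the members. Between libraries the order was nearly fixed, with Spearman 0.965 to 0.998 across the 85 genes, which share exon lengths.

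At the low end, Rpl10l, the retrogene of Rpl10 known from testis, was at 0 in all 8 libraries, which allows up to 3 counts in each. Rpl3l, the striated-muscle paralog of Rpl3, was at 0.278 ± 0.251 TPM (SD, n = 8). The paralogs Rps27rt (19.6 ± 4.79 TPM) and Rpl39l (21.1 ± 9.15 TPM) were also low, and Rpl22l1 (76.1 ± 18.9 TPM) and Rpl7l1 (85.5 ± 11.4 TPM) ranked just above Rpl13a. By CPM, which compares 1 gene across libraries, Rpl22l1 was at 55.1, 27.9, 38.1, 43.0, 27.6, 46.6, 35.9 and 23.5 CPM in the 2 libraries each of WT SSC, KO SSC, WT BCSP and KO BCSP. It was the one member of at least 10 CPM that was not highest in the library labelled WT BCSP 2; its highest value lay in WT SSC library 1. Its parent Rpl22 ran from 205.6 to 272.5 CPM in 7 libraries and stood at 418.4 CPM in the library labelled WT BCSP 2.

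Among core subunits, 3 were counted far below the others: Rpl24 (3.01 ± 1.05 TPM), Rps10 (7.16 ± 1.14 TPM) and Rpl13a (23.1 ± 4.82 TPM, all SD, n = 8). Rpl24 (mm10 chr16:55966275-55971435), a 60S subunit that forms a bridge to the 40S subunit, held 737 counts over all 8 libraries together. The annotation (GENCODE M21) places Gm28037 on the same strand over 46.99% of its exon bases. Rps10 (mm10 chr17:27630418-27636669) is overlapped on the same strand by RPS10-NUDT3 over 20.55% of its exon bases. Rpl13a (mm10 chr7:45125558-45128761) shares 29.38% of its exon bases with Gm45713, and the paralog Rpl36al (mm10 chr12:69182731-69184083; 3.70 ± 1.23 TPM) shares 24.54% with Gm49383. Each of these 4 overlapping genes was listed at 0 counts in all libraries. Rpl19 also has a same-strand overlap, of 3.52% with Gm11629 at 0 counts, and was counted at a mean of 370.8 CPM. Members with long overlaps on the opposite strand were not low: Rpl35 (66.16% of exon bases with Wdr38) was at 114.5 to 262.6 CPM and Rpl23a (59.74% with Tlcd1) at 146.7 to 358.0 CPM. The part of the overlaps in the low counts was not tested. Of the 85 members, 76 also share stretches of 100 bases with another annotated gene, mostly pseudogenes (median 45.0% of the transcript, up to 98.4% for Rps27 with Rps27rt). The sources used here do not say how reads shared in this way were assigned, so counts of such pairs are uncertain.

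The rise in the library labelled WT BCSP 2 ran through nearly the whole set. Of the 78 members with a mean of at least 10 CPM, 77 were highest in it, at 1.30 to 2.25 times the mean of the other 7 libraries (median 1.96 times). The share of all genes highest in it was not counted, and other genes with short exons were raised there too. By Dixon's gap test over all 8 libraries, 66 of the 85 members stood apart and high in it, beside 4.09% of 22153 genes. Rplp0 was at 1877, 1782, 1701 and 1622 CPM in the SSC libraries (WT 1 and 2, KO 1 and 2), at 1608 CPM in WT BCSP library 1, at 3773 CPM in the library labelled WT BCSP 2, and at 1819 and 1553 CPM in KO BCSP. Rpl4, a core 60S protein near the exit tunnel, was at 2184 CPM there and at 1154 to 1396 CPM elsewhere. Rpsa, the 40S protein also known as the laminin receptor, was at 2483 CPM there and at 1099 to 1328 CPM elsewhere. No other library came near these values. Besides Rpl22l1, the members that were not highest in it were those of very few counts: Rpl24 (0.446 CPM there, 0.586 to 1.12 elsewhere), Rps10 (4.44 CPM there, 2.71 to 4.89 elsewhere), Rpl36al, Rpl3l and Rpl10l.

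As log2 CPM minus the gene's mean over 8 libraries, the members' median in the library labelled WT BCSP 2 was 0.86 (interquartile range 0.78 to 0.91). In the other libraries it was 0.18 and -0.14 in WT SSC, -0.12 and -0.12 in KO SSC, -0.26 in WT BCSP library 1, and -0.03 and -0.32 in KO BCSP. Other translation genes were also above their means there: the median was 0.65 for the translation factors with TOP messages, 0.54 for the mitochondrial ribosome, 0.20 for RNA polymerase I and 0.14 for ribosome biogenesis factors, against 0.10 for all 12639 genes of at least 1 CPM. The regulators of ribosomal protein synthesis, a list with Myc, Larp1 and mTOR-pathway genes, were at -0.04. Of the markers of other cell types, the 6 leukocyte markers summed to 0.823 CPM there with 3 at 0 and the 4 endothelial to 0.300 CPM with 2 at 0, each the lowest sum of the 8 libraries. The 6 erythroid markers summed to 5.01 CPM with 2 at 0, within the 2.45 to 36.9 CPM of the others. The 4 skeletal muscle markers summed to 24.5 CPM with 2 at 0 (6.98 to 25.1 CPM elsewhere). The 5 osteoblast markers summed to 2420 CPM with none at 0 (1658 to 3002 CPM elsewhere). Both sums were second highest there. Col1a1 made up 2338 CPM of the osteoblast sum, while Ibsp, at 7.53 CPM, was lowest there of the 8 libraries. Alpl (45.3 CPM), Sp7 (28.7 CPM) and Bglap (0.586 CPM) lay below most other libraries. The part of these cell types in the result was not tested. The cartilage sum was 351800 CPM, close to the 354000 CPM of KO BCSP library 1, whose ribosomal protein median was -0.03. Col2a1 made up 320600 CPM of the former sum and 324200 CPM of the latter.

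**Figure D2:**
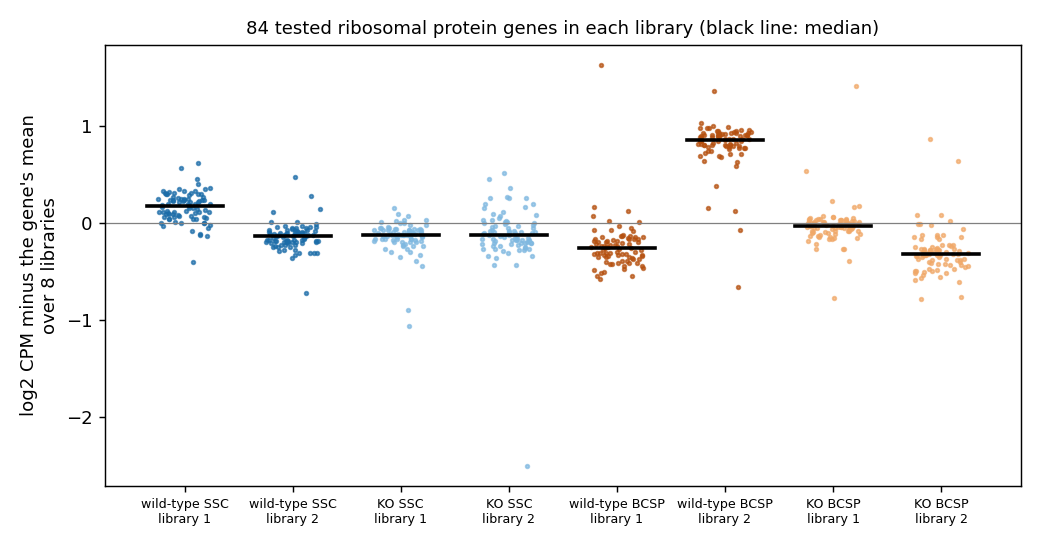
Log2 CPM of each of the 84 tested ribosomal protein genes minus its own mean over 8 libraries, by library, with 1 point per gene and a black line at the median. The median is 0.86 in the library labelled WT BCSP 2 and between -0.32 and 0.18 in the other 7; the few far points are genes of very low counts.

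Ribosomal protein genes are short: their exons cover 374 to 6270 bases with a median of 1739, against 4508 for all genes of at least 1 CPM, and 96.5% of members lie below that median. The deviation of all genes fell with exon length in the library labelled WT BCSP 2 (Spearman -0.498 across 12636 genes of 1 library) and rose with it in KO BCSP library 2 (0.357). In the other 6 libraries this correlation was -0.244 to 0.225. A smooth curve of deviation on exon length over all genes gave the members a median of 0.31 in the library labelled WT BCSP 2, and 0.58 was left after it was subtracted. In KO BCSP library 2 the curve gave -0.20 and left -0.14. The members thus stood above other genes of the same annotated exon length in the library labelled WT BCSP 2. That length covers all annotated exons, and for some members it far exceeds the principal transcript (Rps15a, 6270 against 640 bases). The curve was not fitted on transcript length, so part of what was left may still go with length.

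**Figure D3:**
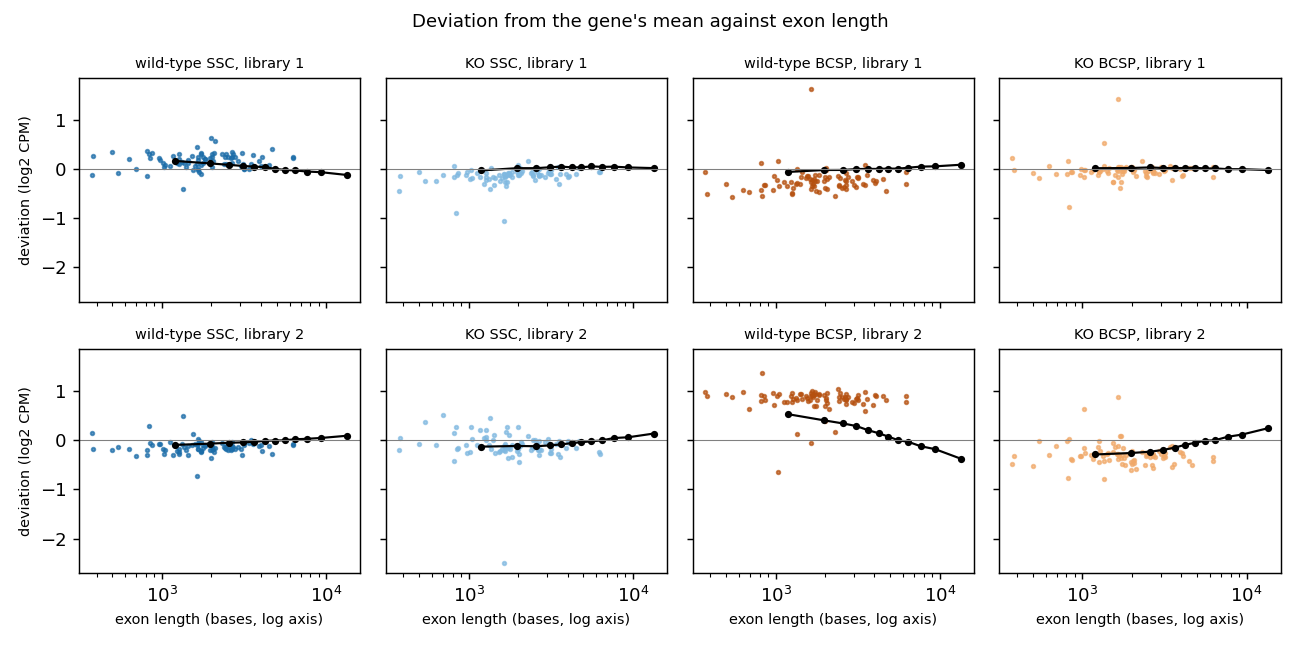
Deviation of log2 CPM from each gene's mean over 8 libraries, against exon length in bases (log axis), in 1 panel per library. Coloured points are ribosomal protein genes. The black line joins the medians, in bins of length, of the other genes of at least 1 CPM. In the library labelled WT BCSP 2 the line falls with length and nearly all points lie above it.

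In BCSP, the KO libraries held less of nearly every ribosomal protein messenger than the WT mean. The difference came from a single WT library, however, and none of these genes passed the test. Of 84 members, 81 had a log2 fold change (KO against WT) below 0, with a median of -0.56, where the median of all genes was 0.01. None passed an edgeR adjusted p of 0.05, where 0.00451% of 22153 genes did. At an unadjusted p under 0.05 there were 6 of 84, all lower, beside 6.19% of all genes, a share near the background in this fit. The count differed between fits, with every such member lower in KO. It was 40 with no filter (6.73% of all genes), 12 by DESeq2 (8.26%) and 12 with the round as a block (9.23%). With DESeq2 size factors in edgeR it was 3 (1362 of 22153 genes), and with exon-length offsets 2 (1382 of 22120 genes). Among the 6 were Rps14, Rps15a, Rpl15, Rpl27 and Rpl7l1. DESeq2 and limma-voom also called 0 members.

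Rps14, a 40S protein whose loss causes the anaemia of the 5q- syndrome in humans, was at 698.7 CPM in WT BCSP library 1, at 1578 CPM in the library labelled WT BCSP 2, and at 749.0 and 540.0 CPM in the KO BCSP libraries. The groups overlapped, with WT library 1 between the KO libraries. Its log2 fold change was -0.82 ± 0.35 (SE) with an edgeR adjusted p of 0.686. Rps15a was at 333.6 and 654.8 CPM in WT and 312.9 and 259.6 CPM in KO (-0.79 ± 0.31, edgeR adjusted p 0.686), among the 4 members with both KO values below both WT values. Those 4 (4.76% of 84, beside 16.4% of all genes) were Rps15a, Rpl27, Rps12 and Rpl7l1. Rplp1 and Rpl15 were also among the lowest, at -0.73 and -0.72. The smallest differences among members of at least 10 CPM were those of Rps29 (-0.29 ± 0.33), Rps23 (-0.31 ± 0.36), Rpl23 (-0.32 ± 0.33), Rpl22l1 (-0.32 ± 0.34) and Rpl21 (-0.35 ± 0.32).

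The members' median in BCSP turned to 0.09 without the library labelled WT BCSP 2, with 62 of 84 above 0; the single WT library is then assumed to vary like the other groups. Without WT BCSP library 1 it was -1.02. With exon-length offsets, which remove each library's length trend, the median over all 8 libraries was -0.31, and 0.12 without the library labelled WT BCSP 2.

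**Figure D4:**
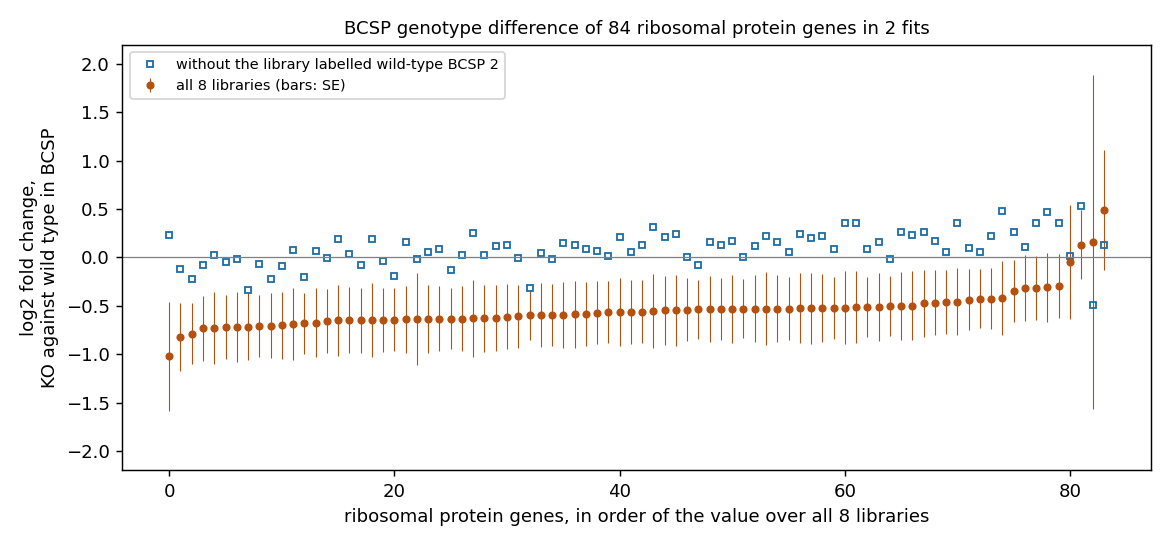
Log2 fold change of KO against WT in BCSP for the 84 tested ribosomal protein genes, ordered by the value over all 8 libraries (filled points, bars are the SE) with the value without the library labelled WT BCSP 2 (open squares). The medians are -0.56 and 0.09, so most squares lie above 0.

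In SSC, the members lay slightly below 0, and 1 library again carried the difference. The median log2 fold change was -0.15, with 75 of 84 members below 0, beside a median of 0.01 for all genes. None passed an edgeR adjusted p of 0.05 (0.00451% of all genes did), and 0 of 84 had an unadjusted p under 0.05, beside 1.2% of all genes. DESeq2 and limma-voom called 0 members. Both KO libraries were below both WT libraries for 23 members (27.4%), and for 13.1% of all genes.

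Rpl12, a 60S protein at the base of the stalk, was at 899.8 and 702.3 CPM in WT SSC and 688.0 and 582.4 CPM in KO SSC (-0.33 ± 0.33, SE). The other lowest were Rps7 (-0.33 ± 0.33), Rpl13a (-0.31 ± 0.33), Rpl27 (-0.28 ± 0.32) and Rps26 (-0.28 ± 0.31), each with an edgeR adjusted p of 1. At the other end, Rps29, among the shortest 40S proteins, was at 97.7 and 78.1 CPM in WT and 89.7 and 140.0 CPM in KO (0.39 ± 0.33). Rpl38 (0.20 ± 0.38), Rps28 (0.19 ± 0.35), Rps21 (0.16 ± 0.35) and Rps23 (0.06 ± 0.36) came next. All 5 were highest among the SSC libraries in KO SSC library 2, so these groups overlapped. The members' median in SSC was -0.09 with exon-length offsets and 0.01 without WT SSC library 1. That library also held the most leukocyte transcripts, 176.7 CPM over 6 markers with none at 0, beside 1.31 in WT SSC library 2 and 5.44 and 1.78 CPM in KO SSC, and the most erythroid, 36.9 CPM over 6 markers. Their part in the result was not tested.

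The difference between the 2 genotype effects (SSC minus BCSP) had a median of 0.43 over the members, with 81 of 84 above 0, and no member passed the interaction test in edgeR, DESeq2 or limma-voom. No gene of all 22153 did in edgeR (0%), and 0 members had an unadjusted p under 0.05, beside 1.27% of all genes. The highest were Rps28 (0.69 ± 0.50, SE), Rps14 (0.69 ± 0.50), Rps29 (0.68 ± 0.47), Rpl39 (0.64 ± 0.47) and Rps21 (0.62 ± 0.49), and the lowest of at least 10 CPM were Rpl21 (0.23 ± 0.45) and Rps24 (0.23 ± 0.48). With exon-length offsets the median was 0.23. Without WT BCSP library 1, 62 members had an unadjusted p under 0.05, all above 0, beside 5.95% of all genes. The median turned to -0.21, with 80 of 84 below 0, without the library labelled WT BCSP 2.

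Over both cell types, KO against WT gave a median of -0.36, with 81 of 84 members below 0 and none past an edgeR adjusted p of 0.05, beside 0.0135% of all genes. An unadjusted p under 0.05 was reached by 6 members (7.91% of all genes), among them Rps15a, Rps7, Rpl27, Rpl12 and Rps12. DESeq2 and limma-voom called 0 members. Rps7, a 40S protein that binds MDM2 when ribosome assembly fails, was lowest at -0.52 ± 0.23 (SE), with an edgeR adjusted p of 0.615. Its CPM was 810.9, 569.1, 661.8 and 1189 in the WT libraries (SSC 1 and 2, BCSP 1 and 2) and 613.0, 482.6, 670.0 and 464.2 in the KO libraries, so the genotypes overlapped. Rps29 was the highest of at least 10 CPM, at 0.05 ± 0.24. The count at an unadjusted p under 0.05 was 32 with no filter (8.06% of all genes) and 58 without WT BCSP library 1 (8.71%). The median was -0.21 with exon-length offsets and -0.05 without the library labelled WT BCSP 2.

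SSC against BCSP gave a median of -0.15, with 79 of 84 members below 0 and 0 past an edgeR adjusted p of 0.05, beside 0.00451% of all genes. At an unadjusted p under 0.05 there were also 0 members, beside 3.71% of all genes, and DESeq2 and limma-voom called 0. Among the lowest were Rpl19 (-0.29 ± 0.22, SE), Rplp0 (-0.29 ± 0.24), Rpsa (-0.28 ± 0.23) and Rpl36a (-0.26 ± 0.23). Rpl22l1, a paralog that can take the place of Rpl22, was highest at 0.30 ± 0.23. Scaled by library totals alone the median was -0.05. The sign turned without the library labelled WT BCSP 2, to a median of 0.14 with 80 of 84 above 0.

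The other genes of the pathway gave no call in the genotype and cell type comparisons over all 8 libraries. In the BCSP comparison, 77 of 77 tested genes of the mitochondrial ribosome were below 0 with a median of -0.56, as were 24 of 26 translation factors with TOP messages (-0.49), 27 of 36 biogenesis factors (-0.19) and 11 of 14 genes of RNA polymerase I (-0.16). Of 18 regulators 12 were above 0 (0.06), and of 6 snoRNA host genes 4 were below 0 (-0.10); with exon-length offsets these 2 medians changed sign, to -0.01 and 0.09. The offsets moved the medians of the mitochondrial ribosome to -0.35, of the TOP factors to -0.34, of the biogenesis factors to -0.13 and of RNA polymerase I to -0.14. Unadjusted p under 0.05 was reached, always downwards, by 15, 2, 4, 1, 1 and 1 genes of these lists in that order, beside the 6.19% of all genes. Rack1, the scaffold protein of the 40S subunit, was at 821.7 and 1689 CPM in WT and at 833.2 and 630.5 CPM in KO BCSP (-0.78 ± 0.33, SE, edgeR adjusted p 0.686). Fau, which encodes the 40S protein eS30 and falls outside the name rule, was at 256.3 and 654.5 CPM in WT and 300.5 and 256.0 CPM in KO. Both followed the pattern of the members. Without the library labelled WT BCSP 2 the BCSP median was 0.00 for the TOP factors and -0.18 for the mitochondrial ribosome, with 65 of 77 still below 0.

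Round 2 against round 1, with the 4 groups as means, asked whether the numbering in the titles goes with the level of these genes. The members' median was 0.13, with 68 of 84 higher in round 2, and none passed an edgeR adjusted p of 0.05, beside 1.76% of all genes. By unadjusted p under 0.05 there were 4, all higher, beside 11.4% of all genes: Rpl39l, Rpl37, Rpl38 and Rps28. DESeq2 called 1 member, Rpl39l, beside 4.23% of all genes, and limma-voom called 0. The groups did not move alike, however. The members' median difference (round 2 minus round 1) was 1.11 in WT BCSP, -0.32 in WT SSC, -0.03 in KO SSC and -0.30 in KO BCSP.

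Without the library labelled WT BCSP 2, the round difference rests on the other 3 groups and 2 residual degrees of freedom. The members' median was then -0.19, and 19 of 84 passed an edgeR adjusted p of 0.05. With WT BCSP library 1 left out in its place, which leaves the same 3 groups for the contrast, the members' median was -0.20. Of the 19, lower in round 2 were 17 (beside 7.97% of all genes) and higher were 2 (beside 7.48%). DESeq2 called 25 lower and 1 higher (all genes 6.95% and 7.31%) and limma-voom 31 and 1 (7.02% and 6.7%), and each called 18 of those 19. With exon-length offsets the split moved to 10 lower and 6 higher (7.53% and 6.92% of all genes), with 10 of the 19 called again. Over all 8 libraries the offsets gave 2 member calls, both higher, beside 3.18% of all genes. Other lists were called too without the library labelled WT BCSP 2: 39 of 77 genes of the mitochondrial ribosome were lower in round 2 and none higher, 5 of 26 TOP factors were lower and 2 higher, and 3 of 6 snoRNA host genes were higher and none lower. Lower calls were thus not particular to the ribosomal protein genes. The balance of lower against higher calls thus depended on how exon length was treated. In the fit without the library labelled WT BCSP 2, the SE was close to 0.11 for most members of at least 10 CPM. It thus came largely from a spread shared over genes. Rpl22l1, with an SE of 0.12, went from 55.1 to 27.9 CPM in WT SSC but from 38.1 to 43.0 CPM in KO SSC. The p-values of this fit therefore say little of how alike the 3 groups were for a single gene.

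Among those lower, Rps27l, a p53-inducible paralog of Rps27, was at 37.9 and 24.0 CPM in WT SSC libraries 1 and 2, 31.1 and 22.0 in KO SSC and 33.3 and 17.5 in KO BCSP. It was lower in round 2 in each of these 3 groups, by a log2 of -0.69 ± 0.12 (SE), and by -0.53 ± 0.11 with exon-length offsets. In WT BCSP it went the other way, at 32.2 and 51.2 CPM. Over all 8 libraries Rps27l differed by -0.36 ± 0.22 (edgeR adjusted p 0.607) and was not called. Without the library labelled WT BCSP 2, its parent Rps27 differed by -0.10 ± 0.11. In the 3 groups other than WT BCSP, Rps27 was at 271.5 and 222.9, 225.9 and 262.0, and 255.6 and 214.3 CPM. Rpl22l1 (-0.47 ± 0.12, adjusted p 0.000976) and Rps7 (-0.45 ± 0.11, 0.000534) were also lower. So were Rps19, mutated in Diamond-Blackfan anaemia, at -0.42 ± 0.11 (adjusted p 0.00166), and Rps13, at -0.42 ± 0.11 (0.00168). Among the others called lower were Rpl34, Rps2, Rpl12, Rpl9, Rps27a, Rplp1, Rplp2, Rpl7l1, Rpl8 and Rpl10, between -0.39 and -0.29. Not all fell in each group. Rpl22l1 rose in KO SSC from 38.1 to 43.0 CPM and Rplp2 from 389.5 to 400.2 CPM, and both fell in WT SSC and KO BCSP.

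Rpl37, a short zinc-finger protein of the 60S subunit, was among the 2 that were higher. It stood at 237.3 and 244.2 CPM in WT SSC libraries 1 and 2, 193.4 and 275.8 in KO SSC and 188.2 and 261.3 in KO BCSP, a log2 difference of 0.35 ± 0.11 (SE, edgeR adjusted p 0.0113). With exon-length offsets it was 0.50 (9.16e-06). The other was Rpl39l, the paralog of Rpl39 best known from testis and a gene of few counts, at 4.83 and 4.75, 2.09 and 4.69, and 2.29 and 3.97 CPM in those groups (0.65 ± 0.24, adjusted p 0.0397). Rps28 (0.26 ± 0.11) and Rpl38 (0.25 ± 0.11) did not pass (adjusted p 0.0886 and 0.11) but did with exon-length offsets, at 0.41 (0.000585) and 0.37 (0.00212), as did Rps26 and Rps21.

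**Figure D5:**
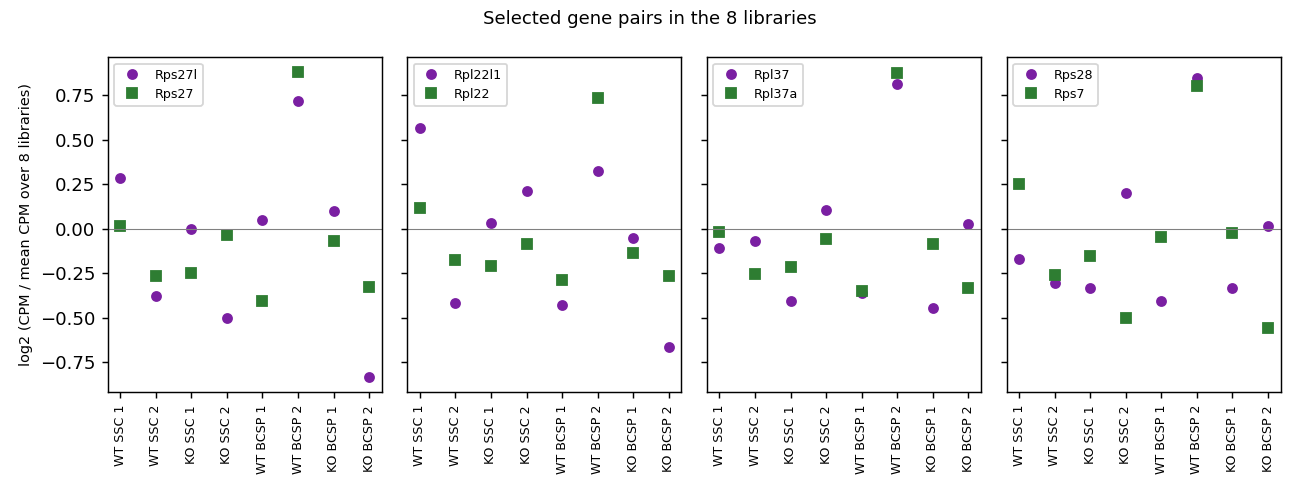
Log2 ratio of CPM to the gene's mean over the 8 libraries for 4 pairs of ribosomal protein genes, in library order. In the 3 groups other than WT BCSP, Rps27l is lower in library 2 than in library 1 and Rpl37 is higher in library 2, while Rps27 and Rpl37a show neither pattern.

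Members otherwise varied together. The median pairwise Pearson correlation of log2 CPM among the 78 members of at least 10 CPM was 0.934 over 8 libraries and 0.75 over the 7 without the library labelled WT BCSP 2. For all 7659 tested genes of that level it was 0.0375 and 0.0385. The points of these correlations share libraries and depth, and no test was made of them. Least like the rest over 7 libraries, by their median correlation with the other members, were Rps28 (-0.11), Rpl37 (-0.10), Rps26 (0.04), Rps21 (0.06), Rpl38 (0.13) and Rps29 (0.20). Rps28, Rpl37, Rps21, Rpl38 and Rps29 are among the 10 members with the shortest coding sequence (138 to 291 bases) of those 78, but others of those 10 did not share the trait: Rpl41, the shortest at 138 bases, correlated at 0.70 and Rps27 at 0.73. Across the 78 members, coding length correlated with the round difference at Spearman -0.42, and -0.296 without the library labelled WT BCSP 2. With the KO difference it correlated at -0.342 in SSC and -0.045 in BCSP. Library size, length and round were not separated further.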

How the data were processed

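The deposited table holds raw counts per gene for 8 libraries. The tools named, per the submitters' processing notes, are STAR, featureCounts and DESeq2, and the build is mm10. The deposited table's own name points to HTSeq counts, so the counting program is not settled. Versions, the annotation and any use of strand are not given in the sources used here, so a gene and its antisense partner cannot be told apart. Columns headed SCC and BCP were taken as SSC and BCSP.

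Counts were scaled with TMM factors and filtered by filterByExpr (minimum count 10, minimum total 15), which left 22153 genes. They were tested in edgeR 4.0.16 (R 4.3.3) by robust quasi-likelihood fits over all 8 libraries, with Benjamini-Hochberg adjustment over all genes tested and a threshold of 0.05. Models held group means (4 residual degrees of freedom), cell type and genotype (5), or group means and round (3). Fits were checked on simulated data. CPM values use the TMM-scaled totals, and log CPM a prior count of 2. Exon lengths came from GENCODE M21 and exon-length offsets from a natural spline with 5 degrees of freedom. Start windows came from RefSeq GRCm38.p6.

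Named were all members called, the 5 highest and 5 lowest of at least 10 CPM in each comparison, the 5 highest and lowest in TPM, the paralogs beside their parents, and subunits with textbook roles; a few genes that this rule names are not reported here. Members and lists were chosen with earlier results of these data known. Alternatives were other scalings, DESeq2 1.42.0, limma-voom (limma 3.58.1), no filter, exon-length offsets, the round as a block, and each library left out. The fits without the library labelled WT BCSP 2 by DESeq2, limma-voom and exon-length offsets were added after seeing the data.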

Additional observations from a re-analysis of the deposited data

Results flagged for a closer look

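The share of counts in ribosomal protein genes was 6.52% in the library labelled WT BCSP 2. This value lay apart from the rest by Dixon's gap test among the 4 BCSP libraries (gap over range 0.885), the 4 libraries of round 2 (0.865) and all 8 libraries (0.606). Among the 4 wild-type libraries it was highest without passing its 95% critical value (0.659). In theory chance flags about 1 in 20 groups. Of all genes tested, 9.99% passed among the BCSP libraries, 9.16% among those of round 2 and 10.7% among all 8, in any library. The flagged sets all hold the library labelled WT BCSP 2, so they are not separate tests. Single members passed in the same library as well: 22 of 85 among the BCSP libraries, 46 among those of round 2 and 66 among all 8, each high in it. Of 22153 genes tested, 2.25%, 3.19% and 4.09% were past and high in that library in the same sets. Among the SSC libraries 9 members passed and among the KO libraries 6, beside 7.16% and 7.0% of all genes.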

How the results depend on the processing

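No ribosomal protein gene was called in a genotype or cell type comparison under any alternative run. For round, DESeq2 and no filter called 1 and exon-length offsets 2; leaving out 1 library gave 0 to 25 (25 and 19 without WT BCSP library 1 and 2, at most 1 otherwise), leaving out both BCSP libraries of round 2 gave 2. Without the library labelled WT BCSP 2, round calls were 26 by DESeq2, 32 by limma-voom and 16 with exon-length offsets.

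The members' median in BCSP ran from -1.02 to 0.091 with 1 library left out, was 0.21 without both BCSP libraries of round 2, and 0.12 with offsets and without the library labelled WT BCSP 2. For the interaction these were -0.21 to 0.88 and -0.36. With 1 library left out the median ran from -0.29 to 0.01 in SSC, -0.52 to -0.05 over both, -0.30 to 0.14 for SSC against BCSP and -0.20 to 0.26 for round; the other scalings turned no sign of a median.

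Over all genes, calls with 1 library left out were 1 to 4 in SSC, 1 to 2 in BCSP, 1 to 12 over both, 1 to 3 for SSC against BCSP and 275 to 3909 for round. In the order SSC, BCSP, both, SSC against BCSP, DESeq2 called 9, 20, 103 and 39 and no filter 4, 38, 234 and 66; limma-voom called 0 in SSC and 1 over both, and library totals 1 over both. Without both BCSP libraries of round 2 there were 11 over both, 36 for SSC against BCSP and 1856 for round. For round, library totals gave 219, DESeq2 937, no filter 861 and exon-length offsets 703; without the library labelled WT BCSP 2, DESeq2 gave 3529, limma-voom 3394 and exon-length offsets 3569.

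Same-round libraries correlated in their deviations at 0.0234 to 0.24 over 6 pairs. The round numbers thus did not pair the samples by the rule of 0.1 for each pair. The pairs below 0.1 were those of WT BCSP with KO SSC (0.0474) and with KO BCSP (0.0234). Pairs among WT SSC, KO SSC and KO BCSP lay at 0.215 to 0.24, so the rule does not show that round had no shared effect. With the replicate block by round, calls were 2 in SSC, 3 in BCSP, 2 for the interaction, 28 over both and 2 for SSC against BCSP, and with exon-length offsets beside the block 7, 19, 2, 85 and 38. The cause was not tested.

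Without Col2a1, Col11a2 and Sparc in the total, the ribosomal protein share was 6.84% and 5.54% in WT SSC, 5.77% and 5.62% in KO SSC, 5.38% and 9.51% in WT BCSP and 5.97% and 5.09% in KO BCSP. Of 1087 values of single named genes under alternatives, 136 moved by more than their SE, 128 of them without a WT BCSP library or both BCSP libraries of round 2. With 2 libraries a group, the SE of a member was mostly near the size of the differences, so absence of a call does not show equal levels.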

Other observations

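Rows named as ribosomal protein pseudogenes followed the genes at a fixed low rate. Of 311 such rows, 109 had 0 counts in every library, and the rest took 0.00998 to 0.0186% of all counts, with the highest value in the library labelled WT BCSP 2. This was 2.76 to 3.06 counts per 1000 counts of the ribosomal protein genes in every library. Rpl17-ps10 was at 51.1 CPM in that library and 18.2 to 30.5 CPM in the others, Rps4l at 36.4 CPM and 13.6 to 28.1 CPM. Rpl38-ps2 was higher in library 2 than in library 1 of every group, at 6.25 and 10.2 CPM in WT SSC, 5.42 and 11.96 in KO SSC, 7.998 and 20.97 in WT BCSP and 7.24 and 11.5 in KO BCSP.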
